A study of Rattus norvegicus with 18 samples.

Results

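The genes of fatty acid synthesis described here are 10: Acly, Me1, Acaca, Fasn, Elovl5, Elovl6, Fads1, Fads2, Scd2 and Srebf1. They were taken by name from the 35658 gene names printed in the scanner files, and every probe that carried one of these names was kept, which gave 18 of the 41012 probes of the array. Of these, 17 were well above background in the sample channel on at least 5 of 18 arrays and entered the tests beside 25187 other probes (25204 in all). The probe of Fads2 was not well above background on any array in either channel.

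The cells were peripheral blood mononuclear cells, isolated on a Ficoll gradient from saphenous vein blood of male Wistar rats. Rats entered the study at an age of 2 months and ate 1 of 3 purified diets for 4 months. The low-fat control diet (LFD) drew 10% of its energy from fat, 20% from protein and 70% from carbohydrate and was eaten freely. The high-fat diet (HFD) drew 60% from fat, 20% from protein and 20% from carbohydrate, and of its fat 37% was saturated, 46% monounsaturated and 17% polyunsaturated. The high-protein diet (HPD) drew 10% from fat, 45% from protein, mainly casein, and 45% from carbohydrate. Portions of HFD and HPD were set daily so that their energy equalled what the LFD rats had eaten, and all rats were fasted for 14 h before they were killed. Each of the 18 arrays, 6 per diet, carried the RNA of an individual sample in Cy5 and a reference pooled from the samples in Cy3, and a value here is the log2 of the Cy5 over the Cy3 signal, so that 0 is the level of the pool. The array called HPD replicate 7 below is titled as an HFD sample, but its source name says HPD, and it was counted as HPD.

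Lipogenesis turns carbohydrate into fat. Citrate that leaves the mitochondrion is cut to acetyl-CoA, acetyl-CoA is carboxylated to malonyl-CoA, and fatty acid synthase builds palmitate from these units with NADPH as reductant, after which elongases and desaturases lengthen the chain and add double bonds. In liver and fat tissue the transcription factor SREBP1 induces the pathway after carbohydrate meals and insulin, and fasting lowers it; most other cells, leukocytes included, express the same enzymes at levels that serve their membranes.

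The labelled cell types were present. Of markers matched to a probe, 14 of 14 T cell, 10 of 10 B cell and 11 of 12 monocyte passed the filter. Platelet (9 of 9) and erythroid (13 of 14) markers passed it too. Listed markers without a matched probe are left out of these counts. All 9 adipocyte markers had a probe, but only Cfd, Pck1 and Retn passed, and Adipoq, Lep, Plin1, Cidec and Fabp4 did not. Between 52.9% and 63.4% of probes were well above background on an array. The most alike arrays were HFD replicates 1 and 6 (Pearson r = 0.736 across 19315 probes, which are not independent replicates), and the least alike were LFD replicates 2 and 6 (r = -0.602), although the labels give the same dyes to every array. LFD replicates 2 and 6 also had the widest log2 ratios, with a median absolute deviation over probes of 0.58 and 0.618. On the other arrays it ran from 0.271 to 0.4.

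None of the 17 member probes differed between diets by limma's test with Benjamini-Hochberg adjustment over all probes, and neither did any other probe. The share of probes called was 0% in HFD against LFD, 0% in HPD against LFD, 0% in HPD against HFD and 0% for any diet, and an unadjusted p under 0.05 was reached by 506, 716, 761 and 581 probes, or 2.01%, 2.84%, 3.02% and 2.31%. Among the members that level was reached by 1 probe, in HPD against LFD. No member had arrays of one diet that all lay outside those of another, which was the case for 0.0833%, 0.0794% and 0.242% of all probes. What the members did show was a wide difference in how far they varied from sample to sample. Me1 spanned 22.3-fold over the 18 arrays and Fads1 6.91-fold, whereas the brightest probes of Acly, Srebf1, Fasn, Acaca, Scd2 and Elovl6 spanned 1.38-fold, 1.37-fold, 1.39-fold, 1.56-fold, 1.62-fold and 1.7-fold. Elovl5 lay between at 2.31-fold. So did some dimmer probes, with Elovl6 probe 2 at 3.32-fold, Scd2 probe 2 at 2.96-fold and Srebf1 probe 3 over a log2 range of 2.09.

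**Figure D1:**
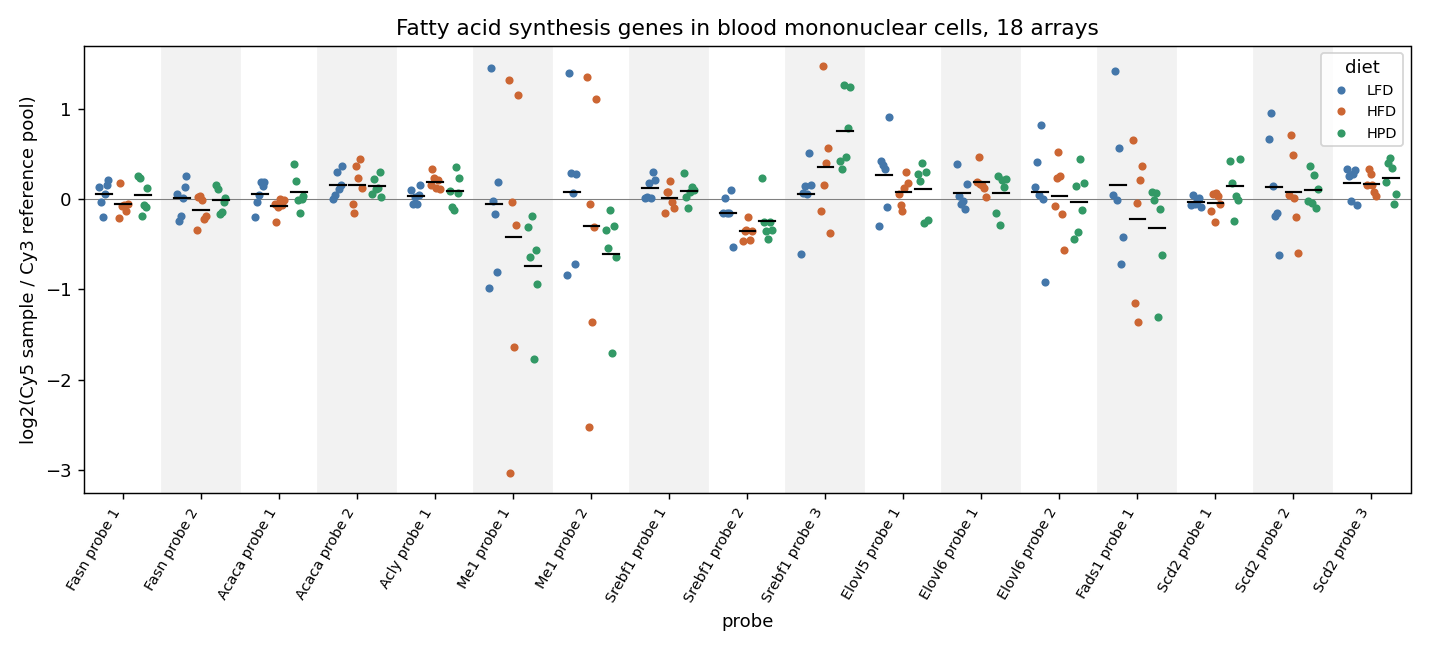
Log2 ratio of the sample to the reference pool (vertical axis) for the 17 probes that passed the filter (horizontal axis), with 1 point per array coloured by diet (6 each) and a black line at each diet's mean. Both Me1 probes and the Fads1 probe have the widest spread over the 18 arrays, from -3.03 to 1.45 for Me1 probe 1, while the probes of Fasn, Acaca and Acly stay between -0.34 and 0.44.

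Acly, ATP citrate lyase, makes the cytosolic acetyl-CoA from which the chain is built. In LFD its log2 ratio ran from -0.057 to 0.15 with a median of 0.031, in HFD from 0.11 to 0.33 with a median of 0.18, and in HPD from -0.12 to 0.35 with a median of 0.076. All 6 HFD arrays lay above the LFD mean of 0.034 ± 0.083 (SD, n = 6), but the ranges overlapped, since LFD replicate 6 at 0.15 was above HFD replicates 4 and 6 at 0.12 and 0.11. The difference of HFD from LFD was 0.16 ± 0.095 (SE, log2), or 1.12-fold, and missed the threshold (limma adjusted p = 1). It was 0.22, 0.094 and 0.058 within slides 1, 3 and 5, which hold 2 against 2, 2 against 1 and 1 against 1 arrays. With the Cy5 signal alone, without the reference channel, the same difference was -0.018.

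Acaca, acetyl-CoA carboxylase alpha, catalyses the committed step to malonyl-CoA. Its brighter probe ran from -0.20 to 0.19 in LFD (median 0.089), from -0.26 to -0.0043 in HFD (median -0.056) and from -0.15 to 0.39 in HPD (median 0.016). All 6 HFD arrays lay below the LFD mean, and LFD replicates 1 and 2, at -0.20 and -0.029, lay within the HFD range. The difference of HFD from LFD was -0.13 ± 0.11 (SE), with a 95% confidence interval from -0.35 to 0.088. The other Acaca probe gave -0.0051 ± 0.11 for the same comparison, and the probes did not follow each other clearly over the 18 arrays (r = 0.237, permutation p adjusted over 10 probe pairs = 0.565). With the Cy5 signal alone, HFD minus LFD was -0.30 at the brighter probe and -0.14 at the other (limma adjusted p = 0.89 and 0.909).

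Fasn, fatty acid synthase, was measured by 2 probes that followed each other (r = 0.848, Spearman rho = 0.802, permutation p adjusted over 10 probe pairs = 1e-04 and 0.00055). The brighter ran from -0.20 to 0.21 in LFD (median 0.092), from -0.21 to 0.18 in HFD (median -0.072) and from -0.19 to 0.26 in HPD (median 0.024). The diets overlapped over almost their whole ranges. HFD was below LFD by -0.11 ± 0.11 and -0.12 ± 0.11 (SE) at the 2 probes, with 1 and 2 of 6 HFD arrays above the LFD mean, and HPD differed from LFD by -0.011 and -0.017. The intervals for HPD against LFD, from -0.24 to 0.22 and from -0.25 to 0.21, leave room for differences of either sign of about this size. With the Cy5 signal alone, HFD minus LFD was -0.32 and -0.23 at the 2 probes (limma adjusted p = 0.89 for both).

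**Figure D2:**
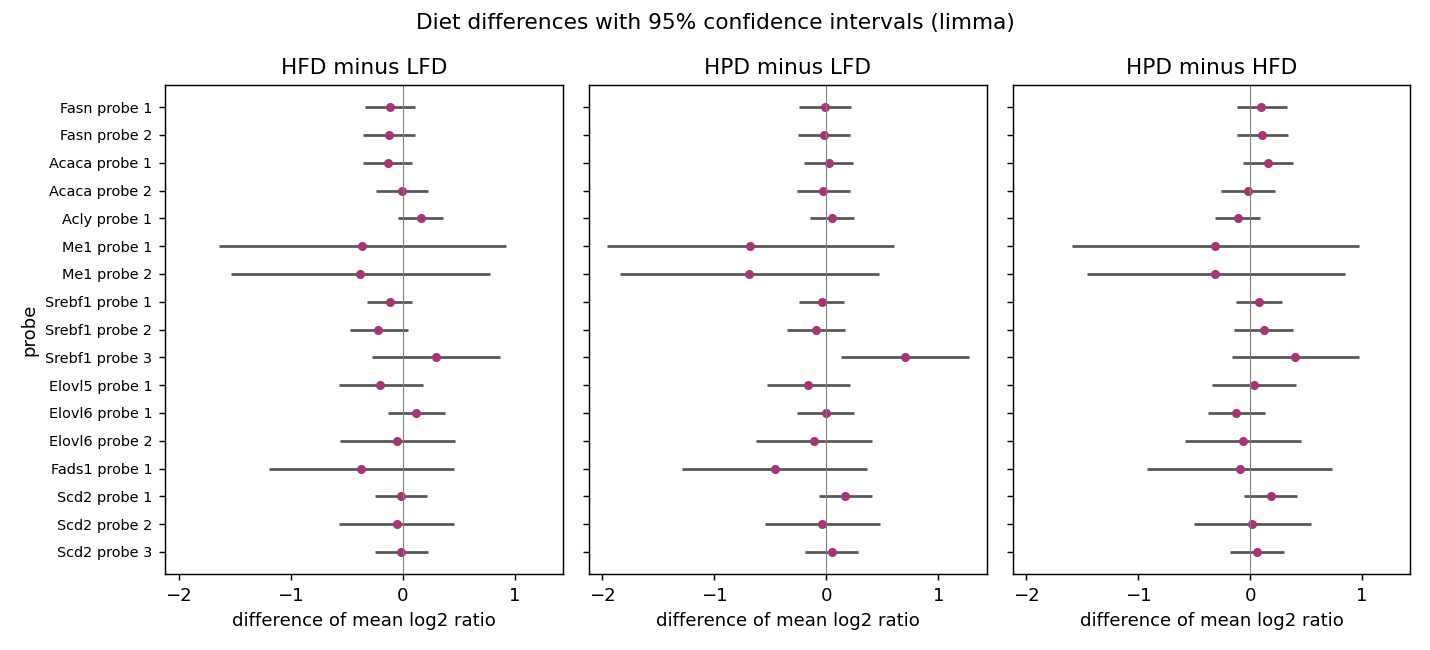
Difference of the mean log2 ratio between diets (horizontal axis) for each member probe (vertical axis), with points at limma's estimate and lines for 95% confidence intervals, 6 arrays per diet. Every interval but that of Srebf1 probe 3 in HPD minus LFD (0.13 to 1.27) includes 0, and the intervals of Me1 are the widest.

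Me1, the cytosolic malic enzyme, supplies NADPH to fatty acid synthase. Its brighter probe (A_42_P792817, rn4 chr8:91839922-91839981, minus strand) read -0.99, 1.45, -0.02, -0.17, -0.81 and 0.19 in LFD replicates 1 to 6. It read 1.32, -3.03, -0.038, -1.64, -0.29 and 1.15 in HFD replicates 1 to 6, and -0.31, -0.64, -0.19, -1.77, -0.56 and -0.94 in HPD replicates 7, 1, 2, 3, 4 and 5. The highest 3 arrays were LFD replicate 2 and HFD replicates 1 and 6, the lowest 3 were HFD replicates 2 and 4 and HPD replicate 3, and HFD held arrays at both ends. The second probe (A_43_P11481, rn4 chr8:91841204-91841262) gave nearly the same order, from -2.53 to 1.39 (r = 0.994, rho = 0.988, permutation p adjusted over 10 probe pairs = 1e-04 for both). The SD of probe 1 over the 18 arrays, 1.11, was larger than that of 98.8% of the probes tested.

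The mean of Me1 was -0.058 ± 0.87 in LFD, -0.42 ± 1.67 in HFD and -0.74 ± 0.57 in HPD (SD, n = 6 each). HPD was below LFD by -0.68 ± 0.61 at probe 1 and -0.69 ± 0.55 at probe 2 (SE), with none of the 6 HPD arrays above the LFD mean, and the limma adjusted p was 1 for both. HFD differed from LFD by -0.36 ± 0.61, with an interval from -1.64 to 0.92, and without HFD replicate 2, the lowest array, the difference was 0.16 at probe 1 and 0.071 at probe 2. None of these passed the test, and each interval includes 0. HPD minus LFD at probe 1 was -0.76 without HPD replicate 7. Within slides, HPD minus LFD was -0.91 on slide 3 (1 against 1) and 0.11 on slide 4 (2 against 2).

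Fads1, the desaturase that forms arachidonic acid and eicosapentaenoic acid, varied in the same way. Its probe (A_44_P465188, rn4 chr1:212684643-212684702, plus strand) read 0.043, 1.42, -0.016, 0.57, -0.72 and -0.42 in LFD replicates 1 to 6. It read 0.65, -1.15, -0.045, -1.36, 0.21 and 0.37 in HFD replicates 1 to 6, and 0.082, -0.0071, 0.061, -1.31, -0.11 and -0.62 in HPD replicates 7, 1, 2, 3, 4 and 5. LFD replicate 2 was highest for Fads1 as for Me1, and the lowest 3 arrays were the same for both genes. The diet means were 0.15 ± 0.76, -0.22 ± 0.84 and -0.32 ± 0.55 (SD, n = 6 each) in LFD, HFD and HPD. HPD was below LFD by -0.46 ± 0.39 (SE), with 0 of 6 HPD arrays above the LFD mean (limma adjusted p = 1).

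Over the 18 arrays Me1 and Fads1 went up and down together, with r = 0.848 and rho = 0.74 (permutation p = 2e-05, adjusted over 36 pairs of members = 0.00072 for r and 0.0227 for rho). They were the only pair of the 36 called with these values, while other processing called more pairs, some of which are named at the end. The r was 0.746 within LFD, 0.915 within HFD and 0.973 within HPD, 0.794 without LFD replicate 2 and HFD replicate 2, which lie farthest from the median of Me1, and 0.891 after centring on slide, since slides hold at most 4 arrays. The next pairs, Acly with Elovl6 (r = 0.603) and Fasn with Scd2 (r = 0.568), had adjusted p = 0.114 each.

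The promoters of these genes are shown because their transcripts moved together. Both windows run from 250 bases before to 50 bases after the RefSeq start on GRCr8, 5′ to 3′ on the gene's strand, at chr8:96540195-96540494 (minus strand) for Me1 and chr1:216252442-216252741 (plus strand) for Fads1. Capitals mark the motifs searched, which in Me1 are 5 Sp1 boxes and in Fads1 are 1 Sp1 box (bases 27 to 32) and 1 NF-Y box (bases 130 to 134).
Me1: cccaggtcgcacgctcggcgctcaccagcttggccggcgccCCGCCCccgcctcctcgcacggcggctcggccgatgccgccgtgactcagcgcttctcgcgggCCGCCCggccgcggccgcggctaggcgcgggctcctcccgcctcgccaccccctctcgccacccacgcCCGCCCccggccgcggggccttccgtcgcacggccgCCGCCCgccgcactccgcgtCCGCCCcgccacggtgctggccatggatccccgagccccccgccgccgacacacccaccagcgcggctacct
Fads1: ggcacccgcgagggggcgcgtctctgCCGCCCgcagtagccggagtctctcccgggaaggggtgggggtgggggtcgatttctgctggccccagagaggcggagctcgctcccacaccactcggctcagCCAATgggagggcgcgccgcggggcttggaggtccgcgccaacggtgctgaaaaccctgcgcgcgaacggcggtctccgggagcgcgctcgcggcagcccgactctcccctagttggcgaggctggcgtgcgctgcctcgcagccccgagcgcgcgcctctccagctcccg
The search covered exact matches on both strands to the sterol regulatory element TCACNCCAC, the NF-Y box CCAAT, the E-box CACGTG and the Sp1 box GGGCGG, and no matches overlapped. Windows were found for 7 of the 10 genes, with 2 for Srebf1, and not for Fasn, Acaca or Elovl6. The NF-Y box was in the windows of Acly, Srebf1, Elovl5, Fads1 and Scd2 (37.5% of all 33469 promoter windows), and the Sp1 box in those of Acly, Me1, Srebf1, Fads1 and Fads2 (33.1% of all). The E-box was in that of Elovl5 alone (6.42% of all), and the sterol regulatory element in none of the 8 windows (1.12% of all). Me1 and Fads1 thus shared matches to the Sp1 box only, and a match is a description of these letters.

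Among 19315 probes well above background on all 18 arrays, the named genes most like Me1 were Ptgs1 (r = 0.975), Nt5c3a (r = 0.97) and Parvb (r = 0.967). Ptgs1 encodes the cyclooxygenase of platelets, which makes the precursor of thromboxane. Those most like Fads1 were Arhgef12 (r = 0.945), Nfe2 (r = 0.943), a transcription factor of megakaryocytes and red cell precursors, and Endod1 (r = 0.939). These r are given as descriptions.

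The 9 measured platelet markers, among them Pf4, Ppbp and Gp1bb, were then set beside the members. Their mean log2 ratio was 1.3, 1.03 and 0.81 in LFD replicate 2 and HFD replicates 1 and 6, and -2.21, -1.38 and -1.02 in HFD replicate 2, HPD replicate 3 and HFD replicate 4, which are the highest 3 and lowest 3 arrays of Me1. Me1 followed it with r = 0.972 and rho = 0.905 (permutation p = 1e-05, the smallest that 100000 permutations can give; adjusted over 81 relations of 9 members with 9 marker lists = 0.00081). Fads1 followed it with r = 0.864 and rho = 0.798 (adjusted permutation p = 0.00121 and 0.00459). Single markers had r from 0.766 (F13a1) to 0.962 (Gp1bb) with Me1 and from 0.672 (Pf4) to 0.855 (F13a1) with Fads1.

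The relation with the platelet list held within each diet, with r = 0.95, 0.99 and 0.891 for Me1 and 0.865, 0.901 and 0.83 for Fads1 in LFD, HFD and HPD. Without LFD replicate 2 and HFD replicate 2 it was 0.947 for Me1, and after centring on slide 0.98. Without the 3 arrays highest in Me1 it was 0.945 for Me1 and 0.778 for Fads1 (n = 15, permutation p = 2e-05 and 0.00043). Me1 changed by 1.28 log2 units per unit of the platelet mean and Fads1 by 0.735. The other 8 marker lists had r between -0.374 (T cell) and 0.469 (monocyte) with Me1 and none passed (lowest adjusted permutation p = 0.453). Without LFD replicate 2 and HFD replicate 2, the r of Me1 was -0.676 with the T cell and 0.593 with the monocyte list. The unadjusted permutation p of these was 0.00446 and 0.0163. After centring on slide, r was -0.361 and 0.468. With Fads1 the other 8 lists had r between -0.0697 (T cell) and 0.369 (erythroid), and none passed (lowest adjusted permutation p = 0.456). The other 7 members had r between -0.45 (Acly) and 0.441 (Elovl5) with the platelet list, and none of these passed either. After centring on slide their r ran from -0.613 (Elovl6) to 0.463 (Elovl5), with -0.509 for Acly. The unadjusted permutation p was 0.00577 for Elovl6 and 0.0315 for Acly. Within HFD (n = 6) r ran from -0.849 (Fasn) to 0.727 (Acaca). For Fasn it was -0.349 in LFD and 0.0112 in HPD, and for Acaca 0.087 and 0.48. Among the other pairs, Acaca and the NK and cytotoxic list passed by rank only, with rho = -0.785 (adjusted permutation p = 0.00459) beside r = -0.576 (adjusted permutation p = 0.322; n = 18). Without HFD replicate 2 and HPD replicate 7, the 2 arrays farthest from the median of Acaca, r was -0.738, and after centring on slide it was -0.397.

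**Figure D3:**
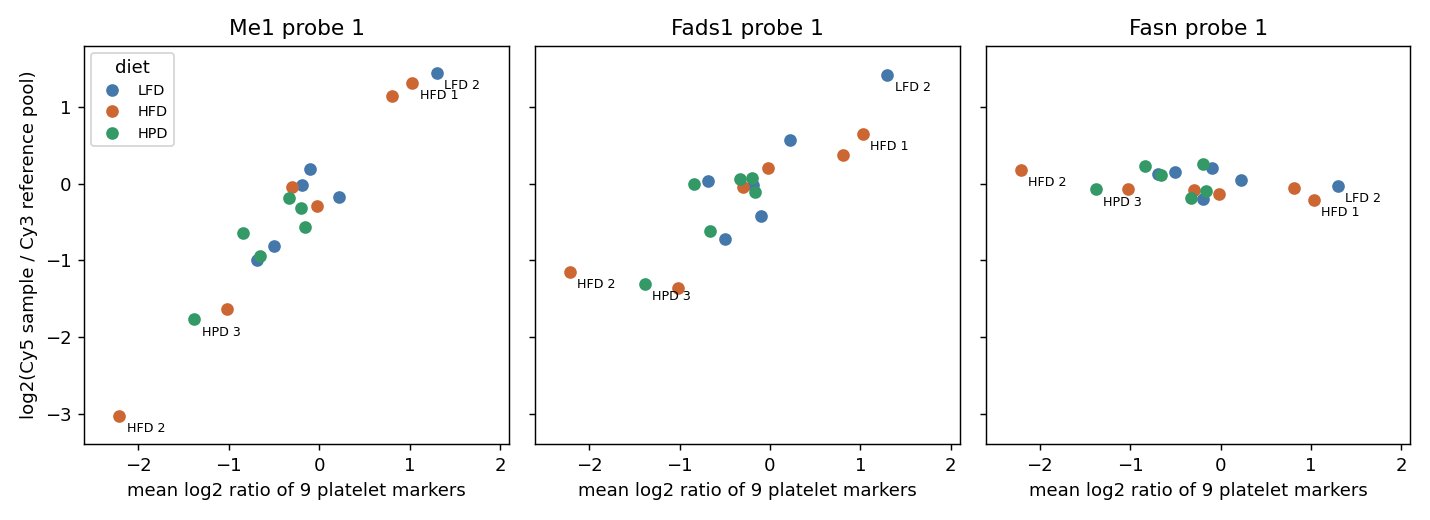
Log2 ratio of Me1 probe 1, Fads1 probe 1 and Fasn probe 1 (vertical axes) against the mean log2 ratio of 9 platelet markers (horizontal axes), with 1 point per array coloured by diet. Me1 (r = 0.972) and Fads1 (r = 0.864) climb with the platelet mean, from HFD replicate 2 at the left to LFD replicate 2 at the right, while Fasn stays between -0.21 and 0.26.

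The platelet mean was 0.006 in LFD (arrays from -0.69 to 1.3), -0.28 in HFD (-2.21 to 1.03) and -0.59 in HPD (-1.38 to -0.16). The erythroid list had the same order of means, at -0.035, -0.066 and -0.64, as had the adipocyte list, at 0.011, -0.12 and -0.26 (3 of 9 markers measured). In HFD the platelet mean of -2.21 was that of HFD replicate 2, which was also the lowest array of Me1. With the platelet mean as a covariate, the difference of HPD from LFD was 0.10 ± 0.17 at Me1 probe 1, 0.014 ± 0.16 at Me1 probe 2 and -0.024 ± 0.23 at Fads1 (SE; limma adjusted p = 1 for each), and the r of Me1 with Fads1 after subtracting each gene's fit on it was 0.0664. The values of a gene and of the markers come from the same array and share its reference and its noise. In bulk cells, fewer cells of a type and less RNA per cell cannot be told apart, and the part of platelets in these preparations was not tested otherwise.

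**Figure D4:**
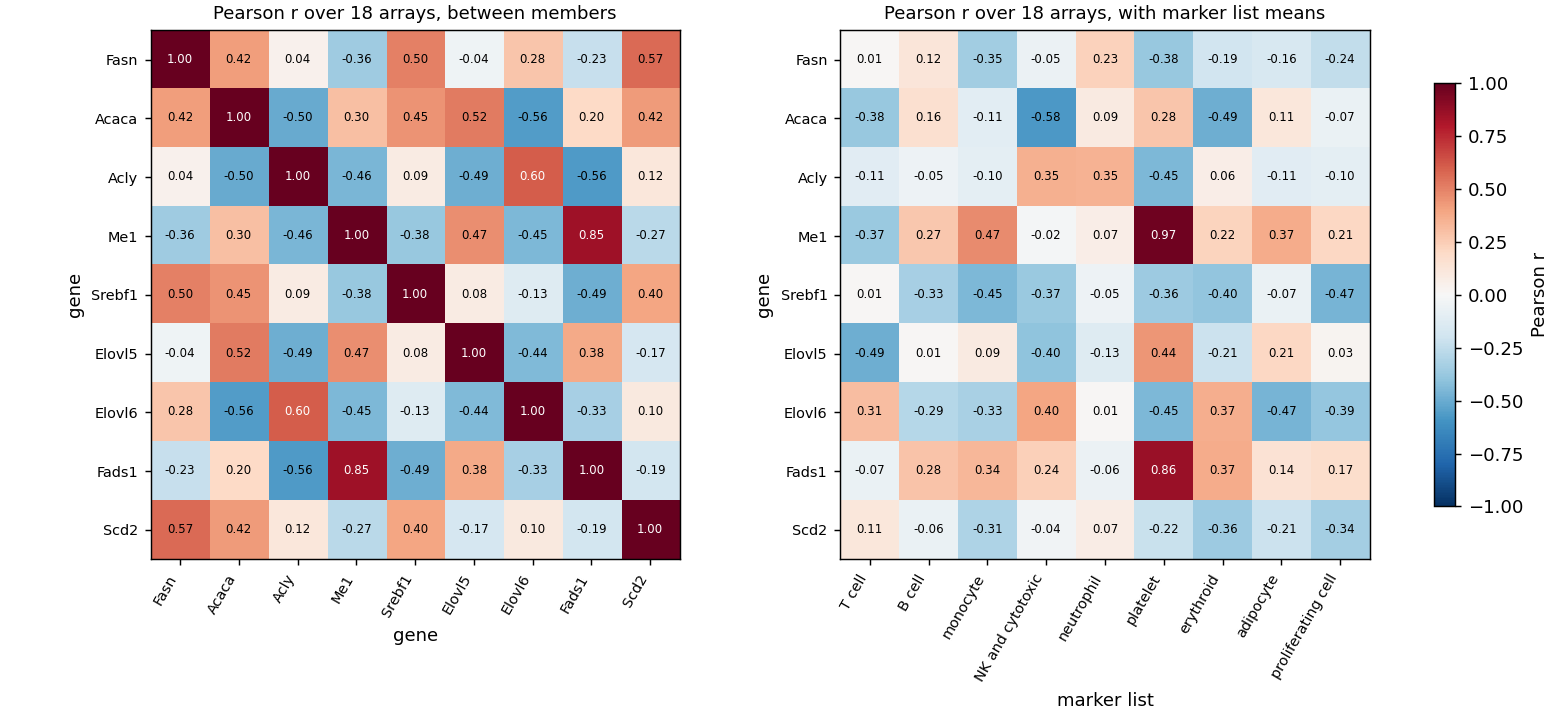
Pearson r over 18 arrays between the brightest probes of 9 members (left) and between these and the means of 9 marker lists (right), with colour from -1 (blue) to 1 (red) and r printed in each cell. The cells of Me1 with Fads1 (0.85), Me1 with platelet (0.97) and Fads1 with platelet (0.86) are the ones whose r passed adjustment; Acaca with the NK and cytotoxic list is at -0.58.

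Fads2 encodes a desaturase that acts earlier than Fads1 in the same route, and lies beside Fads1 on chromosome 1 in the opposite direction. Its probe was not well above background in any of the 18 arrays, so no ratio or difference was read from it. Scd2, a stearoyl-CoA desaturase that forms monounsaturated fatty acids, was measured by 3 probes. The brightest ran from -0.094 to 0.043 in LFD (median -0.041), from -0.26 to 0.062 in HFD (median -0.012) and from -0.24 to 0.44 in HPD (median 0.11). The HPD arrays were the most spread, with replicates 5 and 7 highest at 0.44 and 0.42 and replicate 2 lowest at -0.24. HPD was above HFD by 0.19 ± 0.11 and above LFD by 0.17 ± 0.11 (SE; limma adjusted p = 0.995 and 1), and the former was 0.13 without HPD replicate 7, the array with conflicting labels, and 0.064 with it counted as HFD. The difference of HPD from HFD was 0.31 with the Cy5 signal alone and 0.30 in the authors' deposited table. Of 36 alternatives, 4 gave it an unadjusted limma p under 0.05, and the lowest adjusted p was 0.659. The other 2 probes differed by 0.019 and 0.059 between HPD and HFD and did not follow the brightest (r = 0.0585 and -0.112, adjusted permutation p = 0.82 and 0.736).

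The elongases Elovl5, which acts on polyunsaturated chains, and Elovl6, which takes palmitate to stearate, did not pass the test in any diet comparison either. Elovl5 ran from -0.30 to 0.91 in LFD (median 0.36), from -0.13 to 0.30 in HFD (median 0.089) and from -0.27 to 0.40 in HPD (median 0.24), with LFD replicates 6 and 1 the highest and lowest of all 18 arrays. HFD minus LFD was -0.20 ± 0.18 (SE), or 0.872-fold. The brighter Elovl6 probe ran from -0.11 to 0.39 in LFD (median 0.0039), from 0.025 to 0.47 in HFD (median 0.16) and from -0.29 to 0.26 in HPD (median 0.17). HFD was above LFD by 0.12 ± 0.12, with 5 of 6 HFD arrays above the LFD mean, whereas the second probe gave -0.048 ± 0.25.

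Srebf1 encodes SREBP1, the regulator of the pathway, and had 3 probes on chromosome 10. The brightest (A_44_P178448) ran from 0.013 to 0.30 in LFD (median 0.10), from -0.16 to 0.20 in HFD (median 0.018) and from -0.10 to 0.29 in HPD (median 0.087). The second (A_44_P501142, the mean of 10 spots) ran from -0.53 to 0.10 in LFD (median -0.15), from -0.46 to -0.20 in HFD (median -0.36) and from -0.44 to 0.23 in HPD (median -0.30). HFD was below LFD at both, by -0.11 ± 0.10 and -0.22 ± 0.12 (SE), and at the second probe none of the 6 HFD arrays lay above the LFD mean, while LFD replicate 6 at -0.53 was the lowest of all 18 (limma adjusted p = 1 for both).

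The third Srebf1 probe (A_42_P667564) was dim: it was well above background on 12 of 18 arrays in the sample channel and on 2 in the reference channel. The sample channel reached that level on 4 of 6 LFD, 5 of 6 HFD and 3 of 6 HPD arrays and the reference channel on 2 of 6 LFD and 0 of 6 HFD and HPD arrays, so the ratio is mostly one to a reference at background and no fold is given. It ran from -0.61 to 0.51 in LFD (median 0.11), from -0.38 to 1.47 in HFD (median 0.28) and from 0.33 to 1.26 in HPD (median 0.63). All 6 HPD arrays lay above the LFD mean of 0.051, and LFD replicate 5 at 0.51 lay within the HPD range. The log2 ratio was higher in HPD than in LFD by 0.70 ± 0.27 (SE), the only member difference with an unadjusted p under 0.05 in the main fit (limma adjusted p = 1). The brighter probes gave -0.037 and -0.091 for the same comparison (-0.078 and -0.18 without HPD replicate 7), and with the Cy5 signal alone this probe gave -0.60. Within slides 3 and 4 it was 1.09 and 0.75, and without HPD replicate 7 it was 0.77.

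As a group, 7 of the 9 measured members had a lower mean in HFD than in LFD at their brightest probe, with a median difference of -0.11, beside 0.0061 over all probes, of which 51.5% were higher in HFD. In HPD against LFD 6 of 9 were lower (median -0.011, all probes 0.017, 53.9% of them higher), and in HPD against HFD 4 of 9 were lower (median 0.037, all probes 0.011, 52.3% higher). Of the 9 differences, 6, 3 and 4 were larger than their standard error in HFD against LFD, HPD against LFD and HPD against HFD, where 22.7%, 26.8% and 30.7% of all probes were. Members are not replicates of a diet, and these counts are descriptions.

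The other genes of the pathway did not pass the test in any comparison. Of 19 measured regulators of lipogenesis, 10 had a lower mean in HFD than in LFD and 12 a lower one in HPD (median differences -0.036 and -0.089). Mlxipl, the carbohydrate-responsive factor ChREBP, had the smallest p of these in HFD (-0.38 ± 0.20, SE, limma adjusted p = 1), and Prkab1, a subunit of the kinase AMPK, in HPD (-0.23 ± 0.13, limma adjusted p = 1). Among 11 genes that supply, remove or control acetyl-CoA, malonyl-CoA and NADPH, 6 and 7 were lower. Of these, Mlycd, malonyl-CoA decarboxylase, which breaks malonyl-CoA down, gave -0.53 ± 0.20 in HFD (limma adjusted p = 1). This list and that of the regulators count genes that promote and genes that oppose the pathway together. Of 13 further genes of elongation and desaturation, 8 and 9 were lower (medians -0.05 and -0.07). Of 18 genes of acyl-CoA synthesis and glycerolipid assembly, 7 and 8 were lower (medians 0.034 and 0.037), with Acbd3 at 0.28 ± 0.11 in HPD (limma adjusted p = 1).

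The cholesterol synthesis genes, the targets of the related factor SREBP2, are the nearest comparison to the members. Of 21 measured, 12 had a lower mean in HFD than in LFD and 10 in HPD, with median differences of -0.028 and 0.027. Nsdhl, a sterol dehydrogenase, gave -0.43 ± 0.16 in HFD (limma adjusted p = 1), and Hmgcs1, the synthase at the head of the pathway, gave 0.24 ± 0.14 in HPD (limma adjusted p = 1). Between HPD and HFD, Srebf2 itself gave -0.30 ± 0.16 (limma adjusted p = 0.995).

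Of the technical factors, 89 of 25204 probes, or 0.353%, differed between slides by limma's moderated F test with diet in the model, and no member was among them. The nearest was Scd2 probe 2 (limma adjusted p = 0.108), whose slide means ran from 0.59 on slide 1 to -0.41 on slide 5, while the other Scd2 probes had adjusted p = 0.741 and 0.37. Me1 and Fads1 did not follow the slide (adjusted p = 0.999 and 0.94), and slide 1 alone held the highest and the lowest Me1 value of all arrays, 1.45 and -3.03. Before adjustment, 5856 of the 25204 probes had a p under 0.05 for slide in the same F test, Acaca probe 2 and Scd2 probe 2 among them. Slides 1 and 5 held no HPD array, slide 2 no LFD array and slide 4 no HFD array, so diet and slide were partly mixed. The main fit had no slide term. With slide as a block, 0 probes were called in each diet comparison.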

How the data were processed

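Each array held 1 sample in Cy5 and the reference pool in Cy3. Per the submitters' processing notes and the file headers, the authors' deposited intensity values came from Agilent Feature Extraction 10.5.1.1, whose processed signals are background-subtracted, detrended and dye-normalized, with probe coordinates on rn4. Flags for spots above background or marked as outliers are other columns of the same deposited files. A deposited table of log2 values by the authors covers 20256 probes; its column medians are all 8.4, it followed the ratios of the scanner files with r = 0.886 over array differences, and its scale and centring are not stated; it was an alternative. From the processed signals, log2(Cy5/Cy3) was taken with no pseudocount or further normalization, outlier spots were dropped, spots of a probe averaged, and probes not well above background in Cy5 on at least 5 arrays left out. Diets were compared with limma 3.58.1 (R 4.3.3; group means of 18 arrays, adjusted over 25204 probes, threshold 0.05), and correlations by two-sided permutation tests of 100000 resamples (numpy 2.4.6). Probes of a gene were kept apart, the brightest first. All 10 members are named with every probe, as are the 2 pathway genes of smallest p per list and comparison and the 3 genes most like a member, of which a selection is printed. Members and lists were chosen with earlier results of these data known. The fits were tested on simulated data with known changes in HFD. Against LFD they recovered 4 of 50 probes changed by 0.5 log2 (8%) and 31 of 50 changed by 1 (62%). Of those changed by 1.5 and 2 they recovered 42 of 50 (84%) and 44 of 50 (88%). Beside these calls they called 12 unchanged probes. Changes of 0.5 log2 were thus mostly missed, and smaller ones, as seen in most members, were not simulated. In these simulations probes varied independently, without slide effects or likeness between arrays, and the changed probes were drawn at random. The brightest probes of Acly, Srebf1, Fasn, Acaca, Scd2 and Elovl6 had a smaller SD than most probes. The shares recovered need not hold for them. The labels describe individual samples and do not say how they were drawn from rats, so p-values measure the spread between these samples. The number of arrays limits the precision. Alternatives covered background, scaling, filter, reference channel, slide, replicate number, conflicting labels and each array left out.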

Additional observations from a re-analysis of the deposited data

Results flagged for a closer look

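In 51 groups of 6 arrays (17 probes in 3 diets), 3 arrays stood apart from the rest of their diet by Dixon's criterion (gap over range above 0.625), where chance gives about 1 in 20. HFD replicate 2 was lowest at Acaca probe 1, at -0.26 against -0.09 for the next array. HPD replicate 3 was lowest at Me1 probe 2, at -1.70 against -0.64; its platelet mean was -1.38, also the lowest in HPD. HPD replicate 7 was highest at Srebf1 probe 2, at 0.23 against -0.26; this is the array titled as an HFD sample, and the value lies outside the HFD range of -0.46 to -0.20 as well.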

How the results depend on the processing

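No member passed the adjusted threshold under any of the alternatives. Of 1806 values of member probes under them, 44 had an unadjusted limma p under 0.05, 28 of these for Srebf1 probe 3 in HPD against LFD. In HFD against LFD there were 4 for Srebf1 probe 2, 2 for Acly and 1 each for Fasn probe 1 and Acaca probe 1. Among the 1806, 11 changed sign where the difference had been larger than its standard error. The causes were not tested. With Cy5 alone, Acly was -0.018 in HFD against LFD and 0.025 in HPD against HFD (0.026 with the authors' deposited table), and Srebf1 probe 3 was -0.66 in HFD and -0.60 in HPD against LFD. Srebf1 probe 3 in HFD against LFD was -0.023 with normexp fitted without marked spots and -0.026 without slide 1. Srebf1 probe 2 in HPD against HFD was -0.007 with the replicate block and -0.053 with the conflicting array counted as HFD. With the platelet mean as a covariate (chosen after seeing the data), Me1 in HPD against LFD was 0.10 and 0.014. The count of probes called in HPD against LFD, 0 above, was 2 with array quality weights, 1 with the platelet covariate and 0 to 1 when each array was left out (1 without LFD replicate 2). The other diet comparisons kept 0 calls. Probes at an unadjusted limma p under 0.05 numbered 261 to 1726 in HFD against LFD and 503 to 1879 in HPD against HFD. In HPD against LFD they numbered 387 to 2310. Slide called 149 probes after loess and 2043 in the authors' deposited table. Correlated member pairs, 1 above, numbered 7 with normexp fitted to all spots, 2 with Cy5 alone, 11 in the authors' table, 5 with values centred on slide, 1 to 3 when each array was left out (3 without LFD replicate 6, 2 without HPD replicate 1 or 2) and 0 after subtracting the platelet fit; Me1 with Fads1 was among them in each case but the last. In the authors' table the called pairs included Srebf1 with Fasn (r = 0.728), Acaca (0.793), Acly (0.708) and Scd2 (0.79). Fasn with Acaca (r = 0.753) and with Scd2 (r = 0.743) were also called there. Fasn with Acaca was called with Cy5 alone too (r = 0.809), and Fasn with Scd2 after centring on slide (r = 0.629). The main values gave these pairs r from 0.0854 (Acly with Srebf1) to 0.568 (Fasn with Scd2), and none was called. Arrays of different diets with the same replicate number had r from -0.317 to 0.228 over 16 pairs (median 0.0134), 6 of them over 0.1. Those with different numbers had r from -0.354 to 0.423 over 92 pairs (median -0.0236), 29 of them over 0.1. A shared number thus went with no clear likeness. With the replicate block 0 probes were called in any comparison. Dim probes limit what Fads2 and Srebf1 probe 3 can show.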
